A study of Homo sapiens with 24 samples.

Results

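The metallothionein genes MT1E, MT1F, MT1G, MT1M, MT1X and MT2A were followed in HepG2 cells, a line grown from a human liver tumour. They were taken as a named list, chosen with earlier results of these data known, and are 6 of the 58676 gene rows counted in each of 24 RNA-seq libraries. All cells were transfected with siRNA by Lipofectamine RNAiMAX, either a control (siControl) or one that lowers a member of the IGF2BP family of mRNA-binding proteins (siIGF2BP1, siIGF2BP2, siIGF2BP3), whose part in mRNA decay was the question. In all 4 conditions actinomycin D, which stops transcription, was given at 5 µg per ml for 0, 3 or 6 h before collection, so that a fall in an mRNA over time follows its decay. Each of the 12 combinations of siRNA and time had 2 libraries. The study calls the replicates of its lifetime data independent, but dishes for the 3 time points were seeded from a dish transfected beforehand, so that libraries of 1 condition at different times can share a transfection, and the p-values below measure only the spread between these libraries.

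Metallothioneins are small, cysteine-rich proteins that hold zinc and copper ions in the cytoplasm and buffer the cell against cadmium and oxidative stress. The liver is a main site of their synthesis. Their genes lie in a cluster on the long arm of chromosome 16 and are switched on by metals through MTF1, a zinc-sensing transcription factor that binds short metal response elements in their promoters, and also by glucocorticoids and stress. MT2A is the most widely expressed copy, the MT1 genes form a group of near copies, and MT3 and MT4 are known mainly from brain and from stratified epithelium.

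On GRCh38 the 6 genes lay within 75.61 kb of chromosome 16. MT2A (ENSG00000125148.6) was at chr16:56608584-56609497, MT1E (ENSG00000169715.14) at chr16:56625475-56627112, MT1M (ENSG00000205364.3) at chr16:56632659-56633981 and MT1F (ENSG00000198417.6) at chr16:56657731-56660698. MT1G (ENSG00000125144.13) was at chr16:56666730-56668065, on the minus strand, and MT1X (ENSG00000187193.8) was at chr16:56682470-56684196. The other 5 members were on the plus strand. Reads were counted over the exons of each gene. The reference transcripts of MT1F, MT1G, MT1M, MT1X and MT2A had 3 exons and 398 to 425 bases, of which 183 to 186 were coding, whereas the reference model of MT1E had 2 exons and 746 bases.

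The 300 bases around the start of transcription are shown for the metal response elements, the sites through which the family is known to answer to metals. RefSeq promoter sequences (GRCh38.p14, plus strand, 250 bases before and 50 after the start) matched 2 of the 6 members, MT2A and MT1X. MT1E, MT1F, MT1G and MT1M were not matched. The core of the element was searched on both strands as TGCACNC and TGCGCNC, patterns that differ at a single letter and matched at no shared position. MT2A held 8 matches, 6 of TGCACNC and 2 of TGCGCNC, and MT1X held 4, 2 of each. Of 35116 promoters of the same length, 29.6% held at least 1 match, 0.601% at least 4 and 0.0199% at least 8. The matches with flanking bases follow, with the match in capitals and its first base counted from the start of transcription. A match written as GTGTGCA or GGGTGCA lies on the minus strand.
MT2A, position -168, chr16:56608405-56608433: gcccgcggcccGTGTGCAgagccgggtgc
MT2A, position -88, chr16:56608485-56608513: cagcgcggggcGTGTGCAggcagcgcccg
MT2A, position -54, chr16:56608519-56608547: ggcggggctttTGCACTCgtcccggctct
MT1X, position -122, chr16:56682337-56682365: tcacgggttgcTGCACCCggcccaggatc
MT1X, position -78, chr16:56682381-56682409: tcagcaggggcGGGTGCAaggacgaggcg
MT1X, position -53, chr16:56682406-56682434: ggcggggcctcTGCGCCCggccctcttcc
These are 3 of the 8 matches of MT2A and 3 of the 4 of MT1X. Binding of MTF1 was not measured, and a match is no evidence of a site in use.

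The members are near copies, which bears on how far reads can be assigned. Between pairs of reference transcripts, identity over the aligned bases ran from 73.59% (MT1E and MT1F) to 87.59% (MT1F and MT1G). Coding parts ran from 77.09% (MT1E and MT1X) to 95.08% (MT1G and MT2A) and were closer than the transcripts in most pairs. They were less alike for MT1E with MT1X (transcripts 79.55%) and with MT1M (77.47%, transcripts 79.54%). The reference model of MT1E has 381 coding bases, against 183 to 186 in the others, so its values do not compare like parts. A 100-base window, the read length, was nevertheless mostly unique. Of 647 windows of MT1E, 28 (4.328%) occurred without a mismatch elsewhere, in the genome or in transcripts of other genes. No window of the other 5 members did. Allowing 2 mismatches, the share of windows with a copy elsewhere was 24.17% in MT2A (mostly the pseudogene MT2P1), 17.38% in MT1X (mostly MT1XP1), 16.38% in MT1E and 7.395% in MT1G, and it was 0 in MT1F and MT1M. Reads with more than 1 alignment, 3.591% to 4.053% of a library, were set aside in the counting, and how many of them came from members was not tested. MT1X also shares 165 bases of its 404-base transcript with a long noncoding RNA on the same strand (ENSG00000259827.1), which was listed at 0 reads in every library. Whether reads in the shared bases were set aside as ambiguous is not known, so the level of MT1X may be understated. MT2P1 was also at 0, and MT1XP1 had 2 reads in all.

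MT2A was the most abundant member and MT1M was close to absent. Over all libraries MT2A collected 33438 reads, MT1G 22511, MT1E 19263, MT1F 3704 and MT1X 1983, but MT1M only 36. Levels of different genes were compared as RPKM, gene reads scaled to the size of the library and to the length of all annotated exons in kilobases. The lengths come from a later annotation than the counts. In siControl at 0 h the RPKM was 29.9 ± 0.335 (SD, n = 2 here and below) for MT2A, 20.6 ± 2.72 for MT1G, 14.2 ± 0.357 for MT1E, 1.597 ± 0.302 for MT1F, 1.26 ± 0.0554 for MT1X and 0.0659 ± 0.0932 for MT1M. MT1F and MT1X were the neighbours whose levels lay closest for their spread, and with the shared bases of MT1X their order is uncertain. The order held in 20 of the 24 libraries, and in the other 4, of siIGF2BP1 and siIGF2BP2 after actinomycin D, MT1G lay above MT2A. Per kilobase of the reference transcript the values were 68.2 for MT2A, 37.7 for MT1G, 20.1 for MT1E, 6.96 for MT1F, 5.40 for MT1X and 0.0846 for MT1M, and the order held in all 24 libraries.

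**Figure D1:**
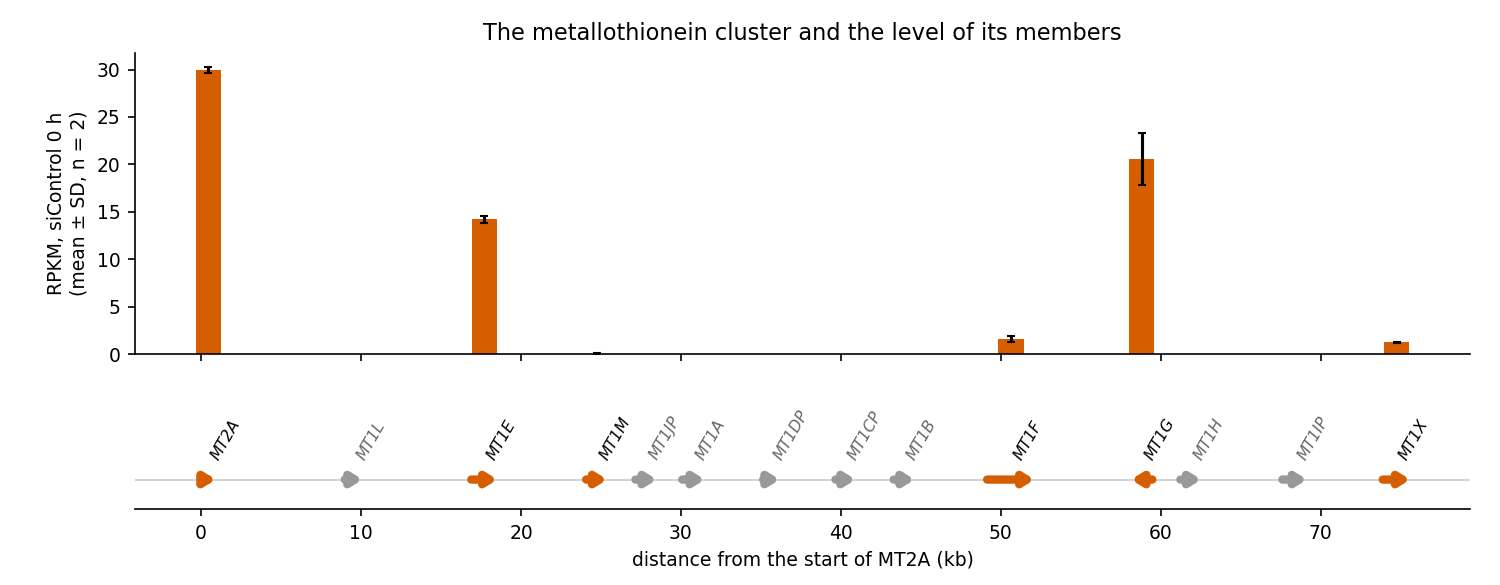
Map of the metallothionein cluster with the level of its members. The x axis is the distance from the start of MT2A in kb, arrows point in the direction of transcription (members in orange, other metallothionein genes and pseudogenes in grey), and bars give the mean RPKM of siControl at 0 h with SD of 2 libraries, from 29.9 for MT2A at the left end to 1.26 for MT1X at the right end, with MT1M at 0.0659.

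The libraries held 31843248 to 74252042 gene reads and 50889 to 119088 reads of the ERCC spike-in, synthetic RNA added in proportion to total RNA. Each siRNA lowered its target: averaged over the 3 time points, IGF2BP1 mRNA was at 17.7% of siControl, IGF2BP2 at 23.0% and IGF2BP3 at 28.96% (edgeR adjusted p = 2.4e-46, 2.4e-40 and 1.1e-35). HepG2 markers were present, with ALB at 10740 to 17360 CPM, counts scaled to the gene reads of the library and AFP at 11610 to 18430. Of markers of other cells, PTPRC, KRT5, CD68 and COL1A1 stayed at or under 0.343 CPM, PECAM1 at or under 1.38 CPM, and ACTA2 was at 29.1 to 42.6 CPM. At 0 h 5, 5 and 4 of the 10 HepG2 markers passed the test described below after IGF2BP1, IGF2BP2 and IGF2BP3 knockdown, with log2 changes between -0.28 and 0.28. Smaller shares of all genes passed, at 15.9%, 12.1% and 9.39% in either direction. The part of the markers in the results was not tested. In bulk samples fewer cells of a kind and less RNA per cell cannot be told apart.

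Before transcription was stopped, the knockdowns moved metallothionein mRNA in different directions. It was lower after IGF2BP3 knockdown in all 5 members tested, higher after IGF2BP2 knockdown in 3, and lower after IGF2BP1 knockdown in 2. The 6 members together came to 62.9 ± 1.61 CPM under siControl, against 83.7 ± 0.787 CPM under siIGF2BP2, 52.3 ± 3.81 CPM under siIGF2BP1 and 39.2 ± 0.325 CPM under siIGF2BP3. A gene was tested where its CPM was at least 1 in at least 2 libraries, which 13136 genes met, among them every member except MT1M. Changes are log2 differences from edgeR's quasi-likelihood test (two-sided, TMM scaling, all 12 groups in 1 fit), and a gene passed where its Benjamini-Hochberg adjusted p over the 13136 genes was under 0.05. The 3 comparisons with siControl share its libraries.

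**Figure D2:**
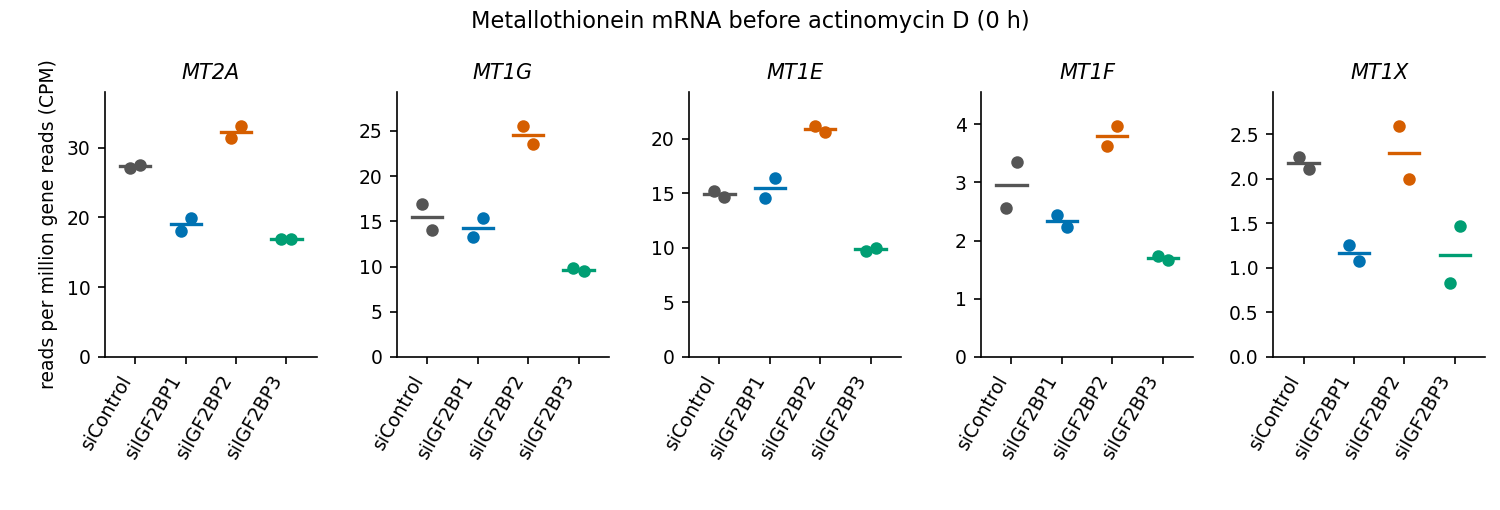
Level of the 5 tested members at 0 h. Each panel is 1 gene, the y axis is CPM from 0, points are libraries and lines the mean of 2; for MT2A both siIGF2BP3 libraries (16.8 CPM) lie below, and both siIGF2BP2 libraries (31.4 and 33.1 CPM) above, the siControl libraries (27.1 and 27.6 CPM).

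IGF2BP3 knockdown gave the widest fall. MT2A, the main copy, measured 27.1 and 27.6 CPM in the siControl libraries and 16.8 CPM in both siIGF2BP3 libraries. MT1G, a metal-inducible copy, measured 16.9 and 14.0 CPM in siControl and 9.83 and 9.51 CPM in siIGF2BP3. MT1E measured 15.2 and 14.7 CPM in siControl against 9.74 and 9.96 CPM. In these 3 genes the groups did not overlap and the siIGF2BP3 libraries lay close together. With 2 libraries a group, unchanged genes can also lie apart. The share of all genes without overlap was not computed, so such statements, here and below, only describe the values. MT1F, counted by 66 to 249 reads a library here, measured 2.56 and 3.35 CPM in siControl and 1.74 and 1.67 CPM in siIGF2BP3. MT1X measured 2.25 and 2.11 CPM against 0.832 and 1.47 CPM. The groups did not overlap in these either, but the siIGF2BP3 libraries of MT1X were far apart.

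All 5 of the 5 tested members passed as lower after IGF2BP3 knockdown, where 4.47% of all genes tested did (9.39% in either direction). The log2 change was -0.70 ± 0.07 (SE) for MT2A (adjusted p = 8.8e-09), -0.67 ± 0.10 for MT1G (2.0e-05), -0.60 ± 0.09 for MT1E (1.1e-05), -0.80 ± 0.21 for MT1F (0.0114) and -0.95 ± 0.28 for MT1X (0.0245), all by edgeR's quasi-likelihood test. The median over the 5 was -0.70, against 0.00 over all genes. As a share of siControl the levels were 51.9% (MT1X) to 66.1% (MT1E). MT2A, MT1G and MT1E passed under all 9 alternatives tried and without any 1 of the 8 libraries at 0 h. The calls of MT1F and MT1X rested on few reads and on single libraries. MT1X was at -0.55 (adjusted p = 0.422) without siIGF2BP3 replicate 1, at -0.90 (0.136) without siControl replicate 1 and at -0.99 (0.0804) without siControl replicate 2. MT1F was at -0.58 (0.222) without siControl replicate 2, at -0.81 (0.0839) without siIGF2BP3 replicate 1 and at -0.77 (0.0921) without siIGF2BP3 replicate 2.

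IGF2BP2 knockdown raised 3 members. MT1G measured 25.5 and 23.5 CPM in siIGF2BP2 against 16.9 and 14.0 CPM in siControl. MT1E measured 21.1 and 20.6 CPM against 15.2 and 14.7 CPM, and MT2A 31.4 and 33.1 CPM against 27.1 and 27.6 CPM. In each the siIGF2BP2 libraries lay above those of siControl without overlap. The log2 change was 0.68 ± 0.10 for MT1G (edgeR adjusted p = 1.6e-06), 0.49 ± 0.08 for MT1E (5.4e-05) and 0.24 ± 0.07 for MT2A (0.0146). These 3 of the 5 tested members compare with 6.65% of all genes passing as higher (12.1% in either direction), and the members' median was 0.36, against 0.02 over all genes.

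MT1F and MT1X did not pass after IGF2BP2 knockdown. MT1F measured 3.63 and 3.96 CPM, above both siControl libraries (2.56 and 3.35 CPM), with a log2 difference of 0.36 ± 0.19 (edgeR adjusted p = 0.278). MT1X measured 2.59 and 2.0 CPM, on either side of siControl (2.25 and 2.11 CPM), with a difference of 0.09 ± 0.26, an interval of -0.43 to 0.60 (± 2 SE). The rise of MT2A was small and its call was lost without siControl replicate 1 (0.23, adjusted p = 0.106), siControl replicate 2 (0.24, 0.0928) or siIGF2BP2 replicate 2 (0.19, 0.214), and also with no filter on low counts (0.23, 0.0565), whereas MT1G and MT1E passed in every such fit.

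After IGF2BP1 knockdown MT2A fell and most MT1 copies did not move beyond the error. MT2A measured 18.1 and 20.0 CPM in siIGF2BP1 against 27.1 and 27.6 CPM in siControl. MT1X measured 1.26 and 1.08 CPM against 2.25 and 2.11 CPM. In both genes the groups were apart. The log2 change was -0.51 ± 0.07 for MT2A (edgeR adjusted p = 1.1e-06) and -0.87 ± 0.27 for MT1X (0.0248). Lower calls were thus made for 2 of 5 members, against 6.50% of all genes (15.9% in either direction), and the members' median was -0.32, against 0.01 over all genes. MT2A passed in all 9 alternatives and all 8 fits with a library left out. MT1X lost its call when any of the 4 libraries compared was left out, where it lay between -0.995 and -0.782 (adjusted p = 0.0741 to 0.150).

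The other 3 members overlapped or nearly overlapped siControl after IGF2BP1 knockdown. MT1G measured 13.3 and 15.4 CPM, with a log2 difference of -0.10 ± 0.10 and an interval of -0.30 to 0.10. MT1E measured 14.6 and 16.4 CPM, with a difference of 0.06 ± 0.09 and an interval of -0.11 to 0.24. MT1F measured 2.43 and 2.23 CPM, both under the siControl libraries, with a difference of -0.32 ± 0.20 and an interval of -0.73 to 0.08. None of the 3 passed (edgeR adjusted p = 0.593, 0.727 and 0.332).

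**Figure D3:**
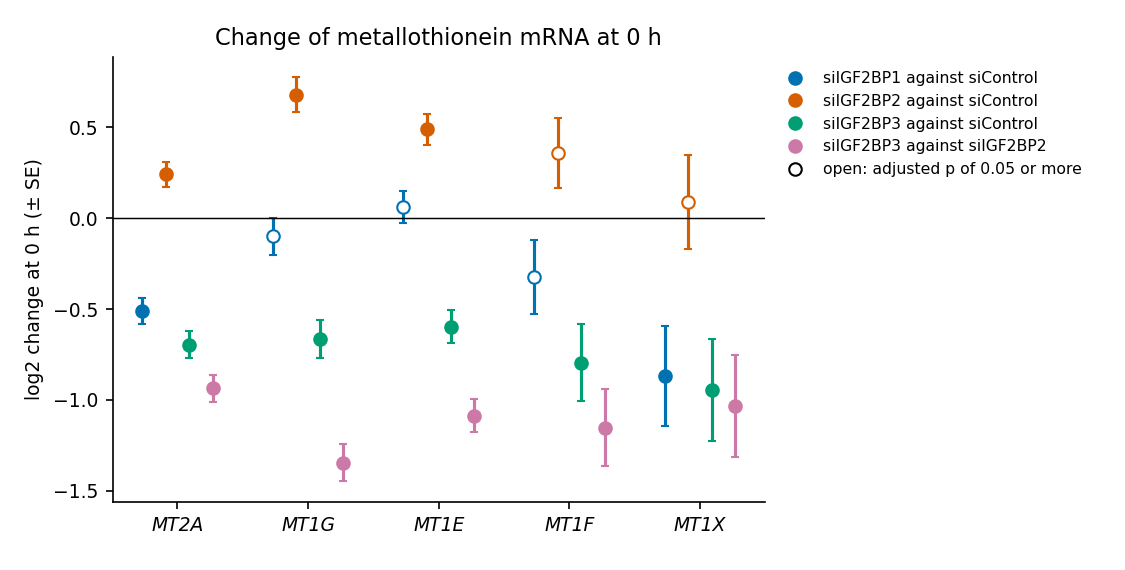
Log2 change of the 5 tested members at 0 h (y axis, ± SE) in the 3 comparisons with siControl and in siIGF2BP3 against siIGF2BP2. Filled points passed the test and open points did not; all 5 siIGF2BP3 points lie between -0.95 and -0.60 and all 5 points of siIGF2BP3 against siIGF2BP2 between -1.35 and -0.94.

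The knockdowns were then set against each other, which leaves out the shared control. These comparisons share knockdown libraries with each other and with those against siControl, so they are not independent of them. Against siIGF2BP2, all 5 tested members were lower in siIGF2BP3, where 4.91% of all genes were (9.19% in either direction). The log2 difference was -1.35 ± 0.10 for MT1G (edgeR adjusted p = 1.6e-12), -1.15 ± 0.21 for MT1F (1.6e-04), -1.09 ± 0.09 for MT1E (1.2e-11), -1.03 ± 0.28 for MT1X (0.0128) and -0.94 ± 0.07 for MT2A (2.4e-12). MT1G in siIGF2BP3 was thus at 39.4% of its level in siIGF2BP2. MT1X lost its call without siIGF2BP2 replicate 1 (-0.82, adjusted p = 0.205) or siIGF2BP3 replicate 1 (-0.63, 0.343).

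All 5 members were also higher in siIGF2BP2 than in siIGF2BP1, where 9.04% of genes were (18.7% in either direction). The log2 differences ran from 0.43 ± 0.09 for MT1E (edgeR adjusted p = 2.8e-04) to 0.95 ± 0.28 for MT1X (0.0112), with MT2A at 0.75 ± 0.07 and MT1G at 0.78 ± 0.10. MT1F (0.68 ± 0.20, adjusted p = 0.0137) and MT1X lost their calls in 3 of the fits with a library left out: both without siIGF2BP1 replicate 1 or 2, MT1F without siIGF2BP2 replicate 2 (0.60, 0.113) and MT1X without siIGF2BP2 replicate 1 (0.75, 0.164).

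Between siIGF2BP3 and siIGF2BP1, 2 of 5 members passed as lower in siIGF2BP3, against 8.31% of genes (14.3% in either direction). They were MT1E at -0.66 ± 0.09 (edgeR adjusted p = 1.6e-06) and MT1G at -0.56 ± 0.11 (2.0e-04), the copies that had stayed near siControl after IGF2BP1 knockdown. MT2A (-0.18 ± 0.08, interval -0.34 to -0.03) and MT1F (-0.47 ± 0.22, interval -0.91 to -0.03) had unadjusted p under 0.05 but adjusted p = 0.111 and 0.170. MT1X differed by -0.08 ± 0.30, with an interval of -0.67 to 0.52.

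The same comparisons were made on the 16 libraries collected after 3 and 6 h, as relative levels with the 2 times averaged. After IGF2BP3 knockdown all 5 members were again lower, from -0.60 ± 0.07 for MT1G to -0.85 ± 0.21 for MT1X, with MT2A at -0.77 ± 0.05 (edgeR adjusted p = 2.3e-14). After IGF2BP2 knockdown MT1G (0.65 ± 0.07), MT1E (0.42 ± 0.06), MT2A (0.21 ± 0.05) and now MT1F (0.64 ± 0.14, adjusted p = 3.9e-04) were higher. After IGF2BP1 knockdown MT2A was lower (-0.49 ± 0.05), but MT1X was at -0.32 ± 0.20 (adjusted p = 0.239). In these later libraries 28.8%, 29.1% and 34.9% of all genes passed in either direction, so a call there sets a gene less apart than at 0 h. The average was chosen after the 0 h values were known.

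Scaling shifted the median of all genes at 0 h and lowered the number of calls. Scaled to the ERCC total in place of TMM, the median of all genes at 0 h moved from 0.01 to 0.12 for siIGF2BP2 against siIGF2BP1 and from -0.01 to 0.11 for siIGF2BP3 against siIGF2BP1. Against siControl it moved from 0.01 to -0.02 for siIGF2BP1, from 0.02 to 0.10 for siIGF2BP2 and from 0.00 to 0.09 for siIGF2BP3. The share of all genes passing fell from 15.9% to 4.94%, from 12.1% to 5.57% and from 9.39% to 3.59% in the same order. The direction of every member that passed was kept. After IGF2BP1 knockdown 1 member passed in place of 2. After IGF2BP3 knockdown MT2A, MT1G and MT1E passed, whereas MT1F (-0.70, edgeR adjusted p = 0.0764) and MT1X (-0.86, 0.121) did not. DESeq2 called the same 3 and gave no adjusted p to the others, which its filter on low means had set aside.

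The decay of the members was followed per ERCC read. In siControl MT2A, MT1G and MT1E kept more of their mRNA than the median gene, and MT1X lay near it. At 6 h, as a percentage of the 0 h mean, MT2A stood at 90.4% and 81.9% in the 2 libraries, MT1G at 83.4% and 71.9%, and MT1E at 74.4% and 67.1%. The median over 12179 genes was 55.3% at that time. MT1F stood at 54.95% and 61.8%, after 104% and 98.3% at 3 h, and MT1X at 49.0% and 51.9%. The first 3 thus lay above the median gene in both libraries and MT1F on either side of it. MT1X lay slightly below it in both, but its 0 h libraries, at 109.7% and 90.26% of their mean, were further apart than that.

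A slope of log2 level on time was fitted in each condition with the ERCC total as the scale, and is expressed per 6 h. In siControl all 5 tested members passed as falling, as 80.3% of all genes did (80.6% in either direction), so the count alone does not set them apart. The slope was -0.98 ± 0.26 for MT1X (edgeR adjusted p = 0.0017), -0.77 ± 0.22 for MT1F (0.0026), -0.50 ± 0.12 for MT1E (8.7e-04), -0.36 ± 0.16 for MT1G (0.0437) and -0.21 ± 0.10 for MT2A (0.0449). The members' median was -0.50, against -0.88 over all genes. The calls of MT2A and MT1G were at the edge of the threshold: without siControl 0 h replicate 1 they were at -0.15 (adjusted p = 0.233) and -0.19 (0.370), and without siControl 6 h replicate 2 at -0.14 (0.264) and -0.24 (0.269). MT1G was also lost without siControl 6 h replicate 1 (-0.42, 0.0616), and MT2A, at -0.21, without siControl 3 h replicate 2, siIGF2BP2 0 h replicate 1, siIGF2BP3 0 h replicate 1 or siIGF2BP3 3 h replicate 2 (adjusted p = 0.0505 to 0.0524). On TMM scaling, which sets the median gene near 0, MT2A (0.65), MT1G (0.51), MT1E (0.37) and MT1F (0.09) had positive slopes, so a fall is stated only relative to the spike-in.

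After the knockdowns fewer members passed as falling. In siIGF2BP1 only MT1E did among the 5 tested (-0.52 ± 0.12, edgeR adjusted p = 8.0e-04), against 69.1% of genes (71.7% in either direction). At 6 h MT2A stood at 93.7% and 109% of its 0 h mean, MT1G at 103% and 114%, and MT1F at 95.1% and 105%. MT1X stood at 100% and 75.8% and MT1E at 69.2% and 70.1%. Both libraries of MT1E and 1 of MT1X thus lay clearly below the 0 h level, the libraries of the other 3 genes lay on or around it, and the median gene was at 63.6%.

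In siIGF2BP2 MT1E alone passed as falling among the members (-0.36 ± 0.12, edgeR adjusted p = 0.0102), against 71.3% of genes (73.8% in either direction). The libraries at 6 h lay apart. MT1G stood at 78.4% and 113%, and MT1E at 68.7% and 86.9%. Without siIGF2BP2 6 h replicate 1, the lower one, no member passed, and MT1E was at -0.24 (adjusted p = 0.128). Without replicate 2 MT1E, MT1G (-0.36, 0.0423) and MT1X (-0.74, 0.0342) did. MT1X, at -0.55 (0.0569) with all libraries, also passed without siIGF2BP3 0 h replicate 1 or 2 (0.0351 and 0.0474). MT2A stood at 92.6% and 102% and MT1F at 101% and 98.2%, while MT1X was at 63.5% and 73.5%, above the median gene at 62.3%.

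In siIGF2BP3 MT1E (-0.38 ± 0.13, edgeR adjusted p = 0.0110) and MT1X (-0.76 ± 0.30, 0.0278) passed as falling, 2 of 5 members against 67.2% of genes (70.1% in either direction). MT1E stood at 74.97% and 78.4% at 6 h and MT1X at 57.3% and 57.6%, although the 0 h libraries of MT1X were 70.1% and 130% of their own mean. MT2A stood at 98.1% and 96.1%, MT1G at 107% and 91.3% and MT1F at 62.9% and 104%. MT1X lost its call without siIGF2BP3 0 h replicate 2 (-0.39, adjusted p = 0.340), and also without 6 h replicate 1 (-0.71, 0.0955) or 2 (-0.72, 0.0905). MT1E lost its call without 6 h replicate 1 (-0.33, 0.0647), and MT1F gained one without 6 h replicate 2 (-0.64, 0.0287). Over all knockdowns MT2A and MT1G had slopes from -0.06 to 0.12, with TMM-scaled slopes from 0.60 to 0.80.

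**Figure D4:**
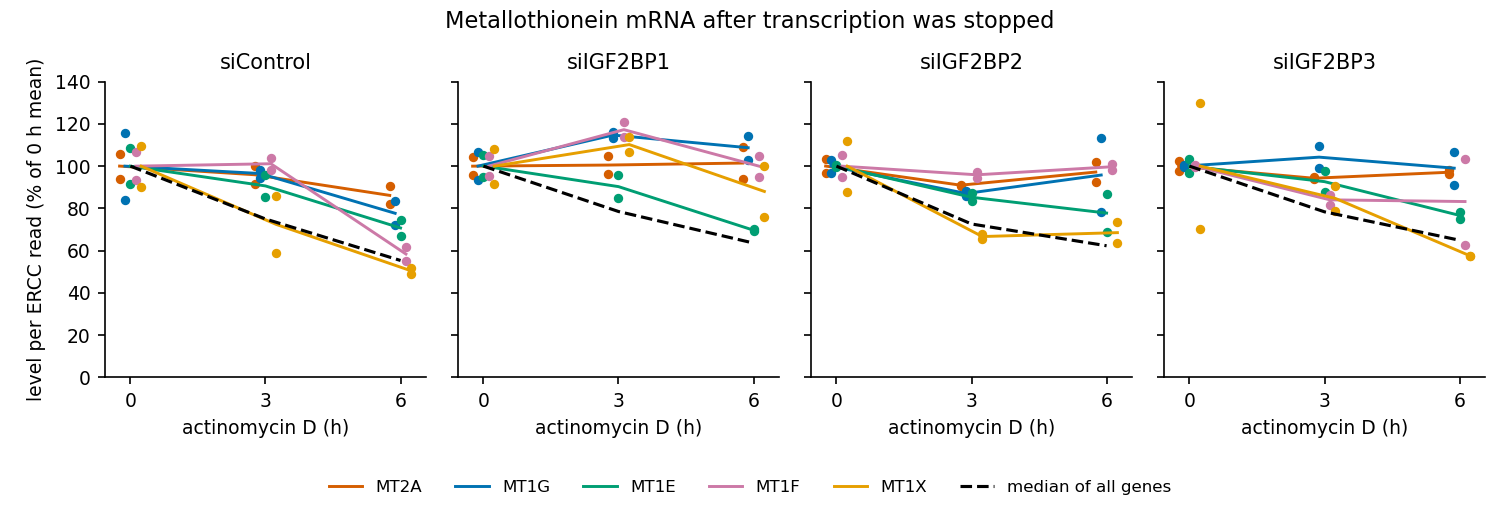
Level of the 5 tested members per ERCC read as a percentage of the 0 h mean (y axis) against hours of actinomycin D (x axis), 1 panel per condition. Points are libraries, solid lines their means and the dashed line the median of 12179 genes, which reached 55.3% to 64.9% at 6 h; on TMM scaling, which sets the median gene near 0, the slopes of 4 of the 5 members in siControl were positive.

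Whether the slopes differed from siControl was tested directly. No member passed in any of the 3 comparisons, where 0.0152% (siIGF2BP1), 0.00% (siIGF2BP2) and 0.0228% (siIGF2BP3) of all genes did, by edgeR's quasi-likelihood test. At an unadjusted p under 0.05 there were 2 members in siIGF2BP1 (MT1F and MT1G), 1 in siIGF2BP2 (MT1F) and 0 in siIGF2BP3, and DESeq2 called 0 in each. Differences of slope were positive in 14 of 15 cases, but so were their medians over all genes, at 0.19, 0.17 and 0.22. MT1F differed by 0.77 ± 0.31 in siIGF2BP1 (adjusted p = 0.428) and by 0.77 ± 0.30 in siIGF2BP2 (0.643). MT2A differed by 0.24 ± 0.14, 0.17 ± 0.13 and 0.17 ± 0.14 over 6 h in siIGF2BP1, siIGF2BP2 and siIGF2BP3, with intervals that reached from -0.10 to 0.51. For MT1E they reached from -0.37 to 0.48.

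Half-lifetimes followed the decay equation of the study, as ln 2 divided by the mean decay constant from 0 to 3 h and 0 to 6 h. In siControl MT2A had a half-lifetime of 35.7 h, MT1G 25.7 h, MT1F 16.1 h, MT1E 15.3 h and MT1X 6.25 h, where the median over 12178 genes was 7.11 h. The value of MT2A was as long as or longer than that of 82.6% of genes, and MT1X ranked at 45.5%. These are imprecise, since 2 libraries per time allow 8 combinations: MT1E ran from 8.65 to 73.5 h, MT1F from 10.02 to 43.0 h and MT1X from 4.06 to 12.7 h. MT2A showed a fall in 7 of the 8, with 15.2 to 544.9 h, and MT1G in only 4. MT1E was the 1 member with a value in each condition that rested on a fall in all 8 combinations, at 14.7 h under siIGF2BP1, 14.6 h under siIGF2BP2 and 19.9 h under siIGF2BP3. No half-lifetime could be given for MT1F, MT1G, MT1X and MT2A in siIGF2BP1 or for MT1G in siIGF2BP3, where the mean decay constant was not above 0.

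Split by interval and averaged over the 4 conditions, MT1E alone passed in each. From 0 to 3 h it changed by -0.16 ± 0.06 (edgeR adjusted p = 0.0141), where 74.0% of genes fell (78.1% in either direction) and the median gene changed by -0.41. From 3 to 6 h it changed by -0.28 ± 0.06 (1.2e-05), where 68.2% fell (69.8% in either direction) and the median was -0.30. MT1F and MT1X changed by -0.25 ± 0.12 and -0.34 ± 0.16 in the later interval (adjusted p = 0.0547 and 0.0583), and MT2A by 0.00 ± 0.05. On TMM scaling the early change of MT1E was 0.27, so this too is relative to the spike-in. The early call of MT1E was lost without siControl 0 h replicate 1 (-0.13, adjusted p = 0.0536) or siControl 3 h replicate 2 (-0.14, 0.0531). MT1X passed in the early interval without siControl 3 h replicate 1 (-0.36) or siIGF2BP3 0 h replicate 1 (-0.39), and in the later one without siControl 3 h replicate 2 (-0.40) or siIGF2BP1 6 h replicate 1 (-0.39). MT1F passed in the later interval without siControl 6 h replicate 2 (-0.27) or siIGF2BP3 6 h replicate 2 (-0.34), and MT1G without siIGF2BP2 6 h replicate 2 (-0.15).

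MT1M, a copy known from liver, was too low to test. Of its 36 reads, found in 9 libraries, 26 came from siIGF2BP2, 7 from siControl, 2 from siIGF2BP1 and 1 from siIGF2BP3. The highest were both siIGF2BP2 libraries at 3 h, with 8 reads each (0.134 and 0.120 CPM). Without the filter on low counts its adjusted p at 0 h was 0.529 to 1 in the 6 comparisons, and no difference was detectable at this depth. Of 15 other metallothionein genes and pseudogenes, 8 had 0 reads in every library and the other 7 had 397 reads in all, against 80935 for the members. MT1A held 329 of these (median 0.301 CPM), MT1JP and MT1P1 30 each, MT1B 3, MT1DP and MT1XP1 2 and MT1H 1, while MT3, MT4, MT1L, MT1CP, MT1IP, MT1HL1, MT1P3 and MT2P1 were listed at 0.

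Genes that handle the same metals did not move with the members as a list. Of 25 zinc genes, MTF1 and the SLC30 and SLC39 zinc transporters, 19 were tested. After IGF2BP3 knockdown 3 were higher and 1 lower, after IGF2BP2 knockdown 1 higher and 4 lower, and after IGF2BP1 knockdown 6 higher and 1 lower, with medians of 0.04, -0.02 and 0.04 (0.00, 0.02 and 0.01 over all genes). Of all genes 9.39%, 12.1% and 15.9% passed in either direction in the same order. A larger share of the zinc list than of all genes thus passed in each. MTF1, the activator of the family, measured 24.03 and 24.4 CPM in siControl, 29.3 and 28.0 CPM in siIGF2BP1, 29.3 and 26.4 CPM in siIGF2BP2 and 24.9 and 23.7 CPM in siIGF2BP3. Its log2 differences of 0.26 ± 0.10, 0.21 ± 0.10 and 0.01 ± 0.10 did not pass (edgeR adjusted p = 0.0674, 0.191 and 0.981). SLC30A1, the zinc exporter that MTF1 also induces, was at 0.25 ± 0.07 in siIGF2BP1 (adjusted p = 0.0148), -0.12 ± 0.07 in siIGF2BP2 (0.375) and 0.04 ± 0.07 in siIGF2BP3 (0.849). SLC39A10, a zinc importer, was at -0.37 ± 0.07 in siIGF2BP2 (3.4e-04), where MT1G, MT1E and MT2A were higher, and did not pass in siIGF2BP1 (-0.19 ± 0.07) or siIGF2BP3 (0.14 ± 0.07).

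Beside SLC30A1 and SLC39A10, the largest changes in the zinc list were SLC30A10 (0.74 ± 0.07) and SLC30A9 (0.31 ± 0.04) in siIGF2BP1, SLC39A11 (-0.54 ± 0.11) and SLC39A14 (-0.35 ± 0.04) in siIGF2BP2, and SLC30A10 (0.30 ± 0.07), SLC39A4 (0.27 ± 0.06) and SLC39A5 (-0.25 ± 0.06) in siIGF2BP3, all past edgeR's threshold. SLC30A10 is known as a manganese exporter, and SLC39A14 carries manganese and iron besides zinc. Of 12 copper genes 11 were tested. In siIGF2BP1 2 were higher and 2 lower, where 15.9% of all genes passed in either direction. In the others 1 was lower in each, where 12.1% (siIGF2BP2) and 9.39% (siIGF2BP3) passed. The copper genes that passed were the copper pumps ATP7A (-1.16 ± 0.13) and ATP7B (0.13 ± 0.04), ceruloplasmin CP (-0.49 ± 0.05) and the importer SLC31A1 (0.17 ± 0.04) in siIGF2BP1, the mitochondrial copper chaperone COX17 (-0.25 ± 0.07) in siIGF2BP2, and CP (-0.23 ± 0.05) in siIGF2BP3.

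Over 6 h in siControl MTF1 changed by -3.19 ± 0.40 and SLC30A1 by -4.16 ± 0.34, where the members ran from -0.98 (MT1X) to -0.21 (MT2A). SLC30A7 was at -1.43 ± 0.11 and SLC39A10 at -0.99 ± 0.09, the latter close to MT1X. Of the zinc list 13 of 19 fell, with a median of -0.70, and of the copper list 6 of 11, with a median of -0.27, against 80.3% and -0.88 over all genes. The largest falls of the copper list were SLC31A2 (-1.87 ± 0.22), ATP7B (-0.67 ± 0.08) and SCO1 (-0.66 ± 0.08).

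Across libraries the levels of the members were positively correlated, although single members moved apart in some conditions, as given above. Pearson's r of log2 TMM-scaled CPM between pairs of members over the 24 libraries ran from 0.713 (MT1G and MT1X) to 0.941 (MT1E and MT1G), a description of libraries that share conditions and depth. Against the mean of the members, the 5 most similar of 9742 other genes were KRT23 (r = 0.944), CEMIP2 (0.937), IL6R (0.917), SLC40A1 (0.871) and POLR3G (0.867). KRT23 is a keratin, IL6R the interleukin-6 receptor and SLC40A1 the iron exporter ferroportin. In the order siControl, siIGF2BP1, siIGF2BP2, siIGF2BP3, KRT23 averaged 48.5, 48.6, 58.4 and 37.3 CPM at 0 h. SLC40A1 averaged 10.4, 9.65, 14.0 and 8.54 CPM in that order. Both had the same highest and lowest condition as the sum of the members. They were picked by correlation over these same libraries, so this match is no separate finding.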

How the data were processed

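Poly(A) RNA of 24 HepG2 libraries, 2 per combination of 4 siRNAs and 3 times of actinomycin D, was analysed. Per the labels and methods of the study, the authors trimmed reads with Trimmomatic 0.39, aligned them to hg38 with HISAT2 2.1.0 and counted them with HTSeq on GENCODE annotation (release 29), and what they deposited is the raw count of reads for each gene. The overlap and strand settings of the counting were not given in the sources used here. Summary rows that name no gene (13.55% to 17.06% of a library) and 45 rows of the Y copy of the pseudoautosomal region were left out. Symbols matched 58207 of 58676 identifiers. Positions, transcript sequences and the exon lengths behind RPKM are from GENCODE release 44. Reads were counted on release 29, and the effect of this difference on RPKM was not tested.

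From the counts, edgeR 4.0.16 (R 4.3.3) was fitted to the 13136 genes that reached a CPM of 1 in 2 or more libraries. Contrasts at 0 h used TMM factors and 12 group means, and slopes used the ERCC total, whose counting error was at most 0.443% (CV). DESeq2 1.42.0, other scalings and filters, a replicate block and leaving out each library were tried. Similarity came from BLAST 2.17.0 and exact window matches. On simulated counts for siIGF2BP3 against siControl at 0 h (12746 genes), 95.9% of log2 changes of 1 and 59.6% of 0.5 were recovered, and 87.8% and 41.1% for slope differences (12727 genes). Apart from the changes put in, each simulated gene had the same mean share in all libraries. The simulated spike-in total was a fixed share of each library, without error of its own. Recovery in the real data, above all of slope differences, may therefore be lower. Intervals are ± 2 SE, and counting errors cover counting only. The members, the zinc, copper and marker lists and the tests were chosen with earlier results of these data known. Named were all members, the siRNA targets, the other metallothioneins, MTF1, SLC30A1, SLC39A10, up to 3 passing genes of each metal list with the largest change, and the 5 genes most like the members with a mean CPM of at least 5. ATP7B at 0 h was named outside that rule, after its values were seen.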

Additional observations from a re-analysis of the deposited data

How the results depend on the processing

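Numbers of members passing the test are compared here across alternative settings. At 0 h siIGF2BP1 against siControl gave 2, and 1 with ERCC scaling, with a CPM of at least 5 (which leaves MT1F and MT1X untested) or with the mean of 3 h and 6 h. siIGF2BP3 against siControl gave 5, and 3 with ERCC scaling, DESeq2 or a CPM of at least 5. That CPM minimum gave 3 instead of 5 for siIGF2BP2 against siIGF2BP1 and for siIGF2BP3 against siIGF2BP2. Both averages over times, chosen after seeing the data, gave 4 instead of 2 for siIGF2BP3 against siIGF2BP1. For falls over 6 h in siControl (5) no filter on low counts, a CPM of at least 5 and fitting only the conditions compared gave 3. In siIGF2BP2 (1) no filter gave 0. In siIGF2BP3 (2) no filter gave 0, and DESeq2, a CPM of at least 5, the 0 h to 6 h change and fitting only the conditions compared gave 1. From 3 to 6 h (1) DESeq2 gave 3. On TMM and library-size scaling no member passed as falling over 6 h and the calls were of rises, 3 and 1 in siControl, 3 and 2 in siIGF2BP1, 4 and 2 in siIGF2BP2 and 3 and 2 in siIGF2BP3. From 0 to 3 h each gave 4 rises, and from 3 to 6 h TMM gave 2 rises and library-size scaling 2 calls, 1 rise and 1 fall. Fewer genes are tested with a CPM of at least 5 and fewer libraries fitted with only the conditions compared; otherwise the cause was not tested.

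Many slopes turned positive without the spike-in, but MT1X stayed negative on both scalings in siControl (-0.11 on TMM) and siIGF2BP3 (-0.11). On TMM scaling the log2 change over 6 h was 0.37 for MT1E, 0.088 for MT1F, 0.51 for MT1G and 0.65 for MT2A in siControl, 0.16 for MT1E and 0.67 for MT1F in siIGF2BP1, 0.31 for MT1E, 0.68 for MT1F, 0.60 for MT1G and 0.63 for MT2A in siIGF2BP2, and 0.27 for MT1E, 0.63 for MT1G and 0.60 for MT2A in siIGF2BP3. From 0 to 3 h it was 0.27 for MT1E, 0.40 for MT1F and 0.36 for MT2A, and from 3 to 6 h 0.0083 for MT1E and 0.21 for MT1G. With library-size scaling it was 0.052 for MT1E, 0.19 for MT1G and 0.33 for MT2A in siControl, 0.030 for MT1E, 0.32 for MT1G and 0.36 for MT2A in siIGF2BP2, 0.34 for MT1G and 0.31 for MT2A in siIGF2BP3, and from 0 to 3 h 0.10 for MT1E, 0.23 for MT1F and 0.19 for MT2A. Both scalings set the total or median of all genes level, and the median gene fell by 0.88 over 6 h in siControl on the spike-in and by 0.02 on TMM.

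With 1 library left out the lone library was assumed to vary like the other groups. The counts then ran from 1 to 2 (siIGF2BP1), 2 to 3 (siIGF2BP2) and 3 to 5 (siIGF2BP3) against siControl, 3 to 5 (siIGF2BP2 against siIGF2BP1) and 4 to 5 (siIGF2BP3 against siIGF2BP2). For decay they ran from 3 to 5 (siControl), 0 to 3 (siIGF2BP2) and 0 to 2 (siIGF2BP3), from 0 to 2 between 0 and 3 h and from 1 to 2 between 3 and 6 h.

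Deviations of same-numbered libraries were at most weakly correlated (correlations -0.0445 to 0.0782 over all pairs of groups). Between times of the same condition the correlations ran from -0.0251 to 0.078, and were highest in siIGF2BP3 (0.0727, 0.0611 and 0.078). Counting error can hide a shared deviation, so these values do not decide whether same-numbered libraries share a transfection. A replicate block kept the 0 h counts at 2, 3, 5, 5, 2 and 5 and gave 4 for decay in siControl, and a block within each condition gave 2 from 3 to 6 h.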
